A study of Mus musculus with 2 samples.

Results

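The genes that write, copy and remove DNA methylation were followed probe by probe in neural stem and progenitor cells (NSPCs) that overexpressed the microRNA miR-153, against control cells. The group was set by name as Dnmt1, Dnmt3a, Dnmt3b, Uhrf1, Uhrf2, Tet1, Tet2, Tet3, Tdg and Mbd4, and every non-control probe annotated with one of these names was taken. This gave 10 of 36400 gene names and 22 of 55674 probes. The miR-153 cells are labelled TNs_miR-153_OE and the control cells TNs_control_OE. Both are NSPCs made from mouse embryonic stem cells by way of embryoid bodies and grown as tertiary neurospheres (floating spheres of progenitors) at passage 2, with RNA taken on day 18 counted from the embryoid bodies. The labels do not name the parent stem cell line, the vector, its promoter or the number of clones, so both groups are described only that far. Each group was measured on 1 array, with 1 colour, so nothing below has a replicate check, no test or p-value was possible, and differences between cultures could not be told apart from differences between the groups.

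DNA methylation in mammals is carried mostly by cytosines followed by guanine (CpG). Dnmt3a and Dnmt3b place new methyl groups, while Dnmt1, brought to newly copied DNA by Uhrf1, restores the pattern after each round of replication. Tet enzymes oxidise the methyl group, and the glycosylases Tdg and Mbd4 cut out altered bases so that base excision repair can put back plain cytosine. In the developing brain these enzymes are known for their part in silencing germline and glial genes and in timing the change from neuron to glia production.

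The microRNA itself was not measured by these probes, and the labels do not say which arm was overexpressed. Both mature arms are shown for reference, from RefSeq on the mouse build GRCm38.p6, chromosome 12, plus strand. Capitals mark the seed, bases 2 to 8, the stretch by which a microRNA chiefly recognises its targets.
mmu-miR-153-5p: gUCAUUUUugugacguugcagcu
mmu-miR-153-3p: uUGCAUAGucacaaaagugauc
The 5p arm lies at chr12:117250821-117250843 and the 3p arm at chr12:117250860-117250881. The DNA words that pair with the seeds are AAAATGA for the 5p arm and CTATGCA for the 3p arm. Neither word was in any of the 22 probes, which are windows of at most 60 bases. Among all probes, 1.12% held the first word and 0.336% the second. The absence says only that these letters are not in these windows, since the rest of each transcript was not examined.

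Of the 59305 spots that are not controls, the miR-153 array had 55.6% well above background and the control array 52.5%, and none was saturated. The signal at the 75th percentile was 549 intensity units for miR-153 cells and 435 for control cells. A level below is log2 of a probe's processed signal over that percentile of its own array, and a difference is the miR-153 level minus the control level. Levels of different probes depend on the probe and are not compared. A gene is represented by its brightest probe, and at least 2-fold is used as a fixed rule of size. Both arrays measured 20437 genes well above background. A level at least 2-fold lower on the miR-153 array was found for 2258 of them (11.0%), and one at least 2-fold higher for 1887 (9.23%). The median difference over all genes was -0.11. The names counted here as genes include regions named only by coordinates. Among the 12331 measured names that are RefSeq symbols, the median was -0.0048, with 1219 at least 2-fold lower and 1364 at least 2-fold higher. Scaling on the 280 spike-in control spots used in place of the percentile added 0.24 to every difference. It placed the median of all genes at 0.13 and made 64.6% of the genes past 2-fold higher, against 45.5% with the percentile. The differences at repeat spots of 1 probe had a median SD of 0.0734 over 258 probes. Those at different probes of 1 gene had an SD of 0.48 over 3404 genes.

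Most of the methylation genes were lower on the miR-153 array. All 22 probes were well above background on both arrays. Of these, 21 were lower and 1 was higher, where 56.5% of all probes measured on both arrays were lower, and 17 of the 22 were lower under spike-in scaling. By brightest probe, Uhrf1 and Dnmt1 were at least 2-fold lower, none of the 10 genes was at least 2-fold higher, and 8 lay between. The median of the 10 differences was -0.53. The proportion of all genes that were at least 2-fold lower, 11.0%, is the background for the 2 of 10. For 9 of the 10 genes the difference was below 0, against 56.1% of all genes and 50.3% of the names that are RefSeq symbols. Under spike-in scaling the difference was below 0 for 7 of the 10.

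**Figure D1:**
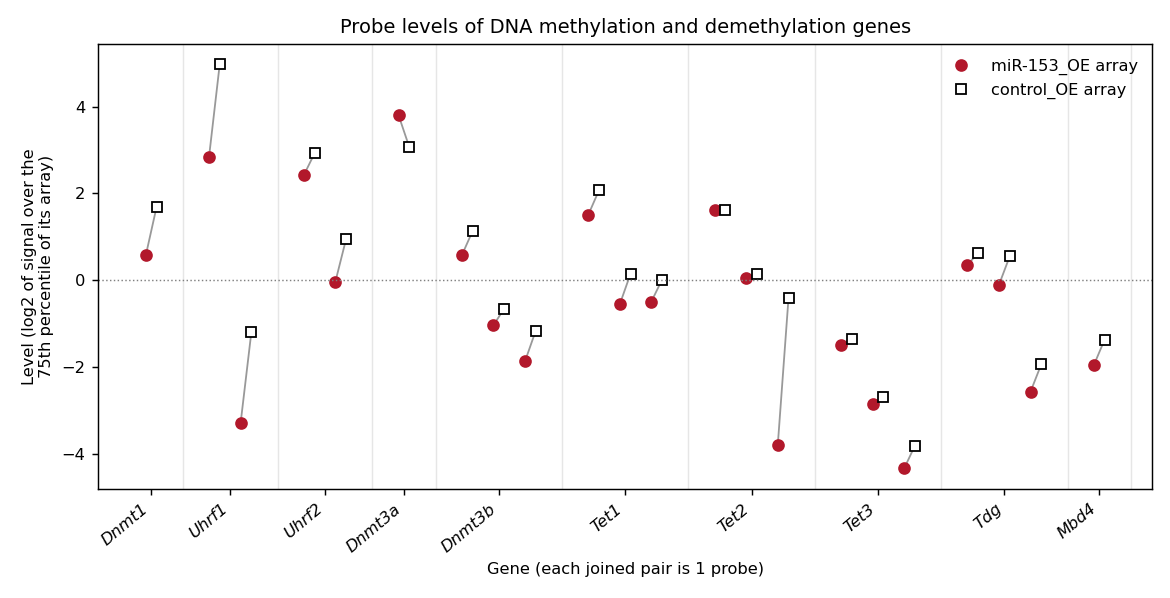
Level of every probe of the 10 genes (vertical axis, log2 of signal over the 75th percentile of its array) on the miR-153 array (filled circles) and on the control array (open squares), with lines joining the values of 1 probe. The Dnmt3a circle alone sits above its square, and the longest lines belong to both Uhrf1 probes and the third Tet2 probe.

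The maintenance genes held both genes past the 2-fold rule. All 5 of their probes were lower on the miR-153 array, with differences from -2.14 to -0.50. Uhrf1, which reads hemimethylated CpG and recruits Dnmt1, had a level of 2.83 on the miR-153 array and 4.98 on the control array at its brighter probe (chr17:56462770-56462829 of the build mm9, plus strand). The signal behind the level was 3913 ± 391 intensity units on the miR-153 array and 13693 ± 1369 on the control array, where the error is the scanner software's own estimate for the spot. The difference was -2.14, a 4.42-fold lower level, with an estimated error of 0.20. The dimmer Uhrf1 probe, whose ends lie 654 bases apart on the genome (chr17:56451668-56452321), read a part nearer the transcript's start. Its level was -3.30 on the miR-153 array and -1.20 on the control array. Its difference of -2.09 lay 0.05 from that of the first probe, within the estimated errors, though it was -1.40 after normexp background correction. Of all genes measured on both arrays, 1.90% had a lower difference than Uhrf1.

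Dnmt1, the maintenance methyltransferase, was read by 1 probe near the end of its transcript (chr9:20711973-20712341, minus strand, with ends 369 bases apart on the genome). Its signal was 816 ± 81.7 intensity units on the miR-153 array and 1397 ± 140 on the control array. The level was 0.57 on the miR-153 array and 1.68 on the control array, a difference of -1.11 with an estimated error of 0.20. This was 2.16-fold lower, and 9.21% of all genes had a lower difference. Dnmt1 lay closer to the 2-fold line than to Uhrf1, and under spike-in scaling its difference was -0.87, short of that line. Uhrf2, a paralog of Uhrf1 that also binds 5-hydroxymethylcytosine, had levels of 2.42 on the miR-153 array and 2.92 on the control array at its brighter probe (chr19:30167958-30168017). The difference of -0.50 there stood beside -0.99 at a probe nearer the transcript's start (chr19:30130768-30130827), which was 1.98-fold lower. Both Uhrf2 probes were thus lower, by sizes that lay 0.48 apart, as much as the usual SD between probes of 1 gene.

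The start regions of the 10 genes were set side by side because Dnmt1 and Uhrf1 differed most. RefSeq gave 15 windows for the 10 genes, each from 250 bases before to 50 bases after a transcript start on GRCm38.p6, out of 32851 such windows. Searched on both strands for TTTGGCGC, TTTCCCGC, TTTCGCGC and TTTGCCGC, words of the kind bound by E2F factors, 1 window of Dnmt1 and 1 of Uhrf1 matched. No window of the other 8 genes held any of these words. Of all windows 2.27% matched, and of all genes 2.60%, while 7 of the 18 S-phase genes with a window in the table matched. Each of the words holds a CpG, and both matching windows held 33 CpGs, against a median of 7 over all windows. The share of all windows is therefore not a like background for them. Dnmt1 had 3 windows and Uhrf1 2, so more bases were searched for them than for genes with 1. The part of E2F factors in the differences was not tested. The matching windows are printed with the words in capitals.
Dnmt1: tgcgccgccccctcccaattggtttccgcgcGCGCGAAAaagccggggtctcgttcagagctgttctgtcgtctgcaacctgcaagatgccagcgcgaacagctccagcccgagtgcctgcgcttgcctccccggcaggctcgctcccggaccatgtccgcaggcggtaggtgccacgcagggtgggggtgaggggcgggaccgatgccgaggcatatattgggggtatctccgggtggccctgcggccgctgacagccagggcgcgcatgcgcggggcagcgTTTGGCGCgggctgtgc
Uhrf1: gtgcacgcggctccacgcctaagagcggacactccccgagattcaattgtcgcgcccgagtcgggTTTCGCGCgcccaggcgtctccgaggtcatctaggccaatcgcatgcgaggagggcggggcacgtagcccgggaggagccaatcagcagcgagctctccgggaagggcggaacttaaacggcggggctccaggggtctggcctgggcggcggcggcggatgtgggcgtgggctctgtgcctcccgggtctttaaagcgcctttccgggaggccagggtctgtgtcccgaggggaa
The Dnmt1 window is chr9:20952574-20952873, minus strand, with TTTCGCGC read on the opposite strand from base 32 and TTTGGCGC from base 284. The Uhrf1 window is chr17:56304063-56304362, plus strand, with TTTCGCGC from base 66. The words in each window do not overlap. These matches describe letters only, and binding was not measured. CpG density was read in the same windows. Of the 15 windows, 10 were CpG-rich, with an observed over expected CpG ratio of at least 0.6 and at least 50% G and C, against 33.5% of all windows. At least 1 such window belonged to 9 of the 10 genes, all but Tet3, whose ratio was 0.576. The share of all windows takes in genes not measured on these arrays, and no share per gene was computed. CpG density is therefore not shown to be particular to the group. The window of Tet2 held 57 CpGs, and those at the first 2 starts of Dnmt3a, which overlap, held 46 and 47, against a median of 7 over all windows. The range ran down to 18 at the other Dnmt3a start and to 12 and 2 at the other Dnmt1 starts.

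The 2 de novo methyltransferases had opposite signs. Dnmt3a was the one member that was higher on the miR-153 array. Its probe (chr12:3914320-3914379, plus strand) had a signal of 7637 ± 764 intensity units on the miR-153 array and 3637 ± 364 on the control array. The level was 3.80 on the miR-153 array and 3.06 on the control array, a difference of 0.73 with an estimated error of 0.20. At 1.66-fold this did not reach the 2-fold rule, and 14.3% of all genes had a higher difference. The probe lists both RefSeq transcript variants of Dnmt3a, so it does not separate the long from the short form of the enzyme. It was the only Dnmt3a probe, so no second part of the transcript was read.

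Dnmt3b, the partner enzyme best known from early embryos and pluripotent cells, was lower at all 3 of its probes. At the brightest (chr2:153513403-153513462, plus strand) the level was 0.57 on the miR-153 array and 1.13 on the control array, a difference of -0.56 and 1.47-fold. The others, nearer the transcript's start (chr2:153512991-153513050 and chr2:153512098-153512157), gave -0.71 and -0.38. All 3 exceeded their estimated errors, and none reached 2-fold. The gap between Dnmt3a and Dnmt3b kept its direction in all 10 alternative settings, with Dnmt3a between 0.73 and 0.97 and Dnmt3b between -0.58 and -0.32. Of these settings, only normexp correction, quantile normalization, lowess and the mean of all probes could change the size of the gap. The others shift both genes alike or leave them as they were.

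**Figure D2:**
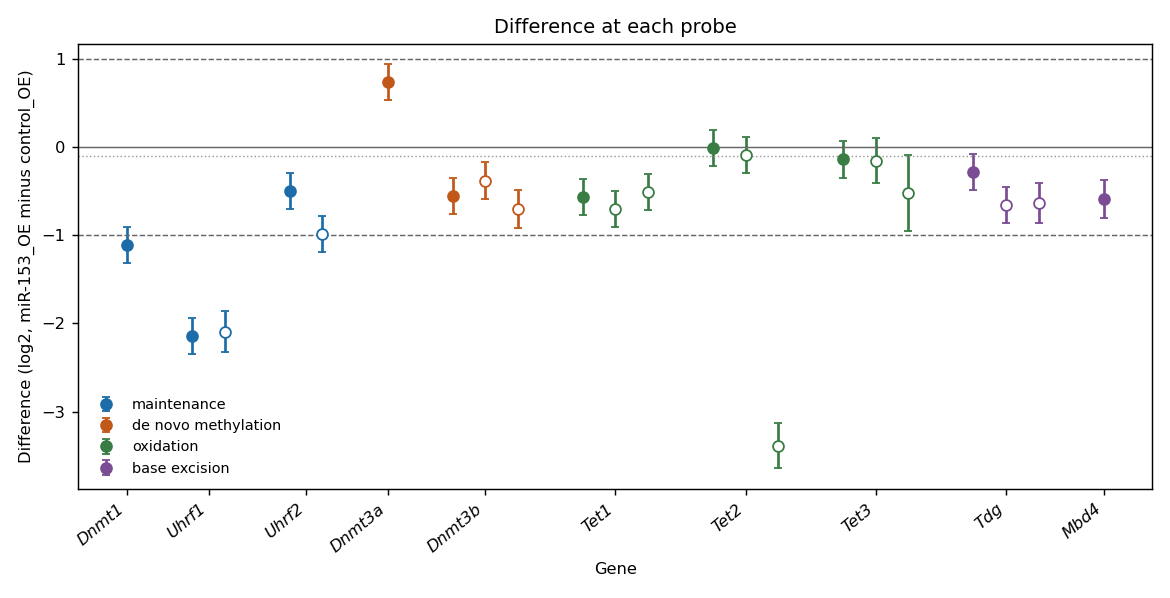
Difference of every probe (vertical axis, log2, miR-153 array minus control array) by gene, coloured by role, with filled points for the brightest probe of each gene and bars for the scanner software's estimated error. Dashed lines mark 2-fold and the dotted line the median of all genes. Both Uhrf1 probes lie near -2.1, the 3 Tet1 probes lie close together, and the 3 Tet2 probes fall into a pair near 0 and 1 probe at -3.39.

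The Tet dioxygenases were lower at all 9 of their probes, with differences from -3.39 to -0.01, of which 4 lay above 0 under spike-in scaling, but the 3 genes did not behave alike. Tet1 was evenly lower. Its brightest probe (chr10:62274448-62274507, minus strand) had a level of 1.50 on the miR-153 array and 2.07 on the control array, a difference of -0.57. The other 2 probes (chr10:62301856-62301915 and chr10:62276042-62276101) gave -0.70 and -0.51, so the 3 probes lay within 0.19 of each other.

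Tet3 differed by less than the estimated error at its brightest 2 probes. The brightest (chr6:83319720-83319779, minus strand) had a level of -1.49 on the miR-153 array and -1.35 on the control array, a difference of -0.14 with an error of 0.21, and it was 0.10 under spike-in scaling. The second (chr6:83352743-83352802) gave -0.16. The third (chr6:83318731-83318790) gave -0.53 from signals of 27.1 intensity units on the miR-153 array and 30.9 on the control array, and its estimated error of 0.43 is the widest of the 22. Only this dimmest Tet3 probe exceeded its own estimated error.

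Tet2 was the gene whose probes disagreed. At its brightest probe (chr3:133126751-133126810, minus strand) the level was 1.60 on the miR-153 array and 1.62 on the control array, a difference of -0.01. A neighbouring probe (chr3:133126905-133126964) gave -0.09, and both were above 0 under median and spike-in scaling. The third probe (chr3:133176421-133176479) lay 49.5 kb upstream in the direction of transcription. Its signal was 39.5 ± 5.84 intensity units on the miR-153 array and 327 ± 33.1 on the control array. The level was -3.80 on the miR-153 array and -0.41 on the control array, a difference of -3.39 with an estimated error of 0.26. It was 10.5-fold lower, the largest difference of the 22 probes, and -2.18 after normexp background correction. The array's annotation ties the first 2 probes to Tet2 transcripts near their end, but the third to a single cDNA record that is not a RefSeq transcript. Bases 29 to 58 of the third probe are shown because they hold AATAAA, in capitals, the word that commonly precedes a poly(A) tail.
Tet2 probe, bases 29 to 58: aaagttgatcttAATAAAgacctgtttgct
The word was in neither of the other Tet2 probes and in 10.1% of all probes. It is a description of the probe's letters, and no transcript end was measured there. With the mean of all probes in place of the brightest, Tet2 had a difference of -1.16 and would be counted with Uhrf1 and Dnmt1.

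The glycosylases were lower at all 4 probes, none by 2-fold. Tdg, which removes the oxidised bases that Tet enzymes make, had a level of 0.35 on the miR-153 array and 0.63 on the control array at its brightest probe (chr10:82112994-82113053, plus strand). The difference was -0.28, and the probe next to it (chr10:82113115-82113174) gave -0.63. The third probe (chr10:82110701-82110760) gave -0.66, but it also lists the non-coding gene Gm9855, so signal from that copy cannot be told apart there. The probe named Gm9855 (chr10:82110035-82110094), on the same strand and 607 bases from the nearest Tdg probe, differed by -0.67. Whether it reads Tdg RNA was not examined. Mbd4, which removes thymine left by deamination of methylcytosine, was read by 1 probe (chr6:115792515-115792574, minus strand). Its level was -1.96 on the miR-153 array and -1.38 on the control array, a difference of -0.59 with an estimated error of 0.21, or 1.50-fold lower.

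In order of difference the genes ran Uhrf1, Dnmt1, Mbd4, Tet1, Dnmt3b, Uhrf2, Tdg, Tet3, Tet2 and Dnmt3a. Uhrf1 lay 1.03 below Dnmt1, and Dnmt1 lay 0.53 below Mbd4, both beyond the combined estimated error of 0.29 and 0.30. At the other end Dnmt3a lay 0.75 above Tet2. From Mbd4 to Tet2 every neighbouring pair lay within its combined error, although the ends of that stretch, Mbd4 and Tet2, lay 0.58 apart. These errors are technical and hold no spread between cultures. They also leave out the spread between different probes of 1 gene, which had an SD of 0.48, so the order depends on the probe chosen.

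**Figure D3:**
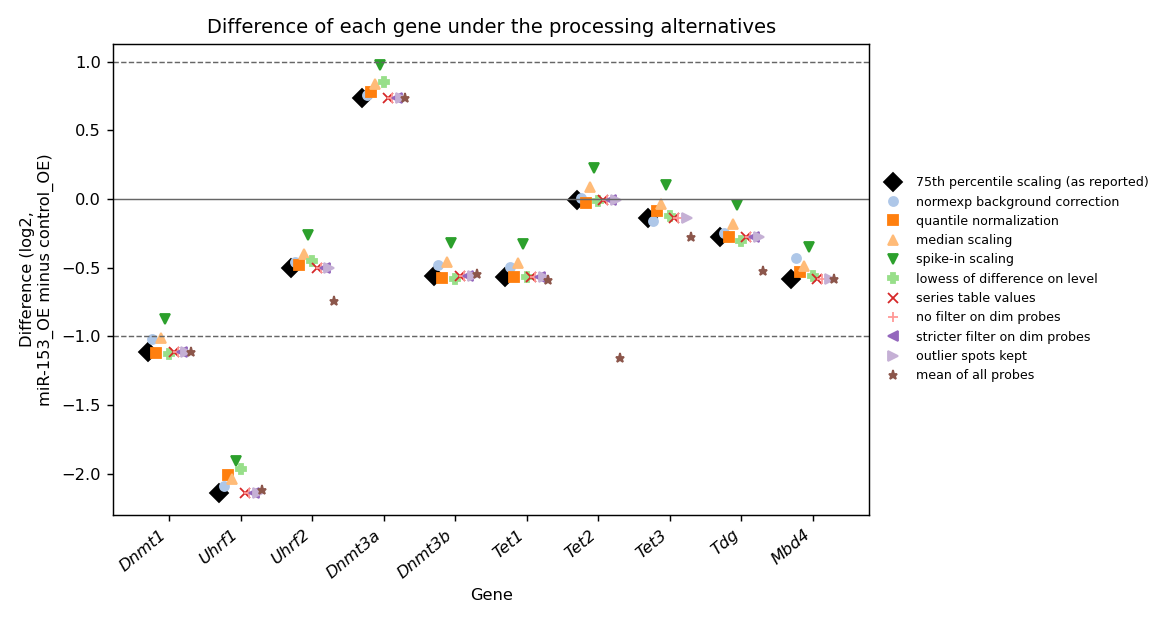
Difference of each gene (vertical axis, log2, miR-153 array minus control array) as reported (diamond) and under each of 10 processing alternatives (other symbols), with dashed lines at 2-fold. Uhrf1 stays between -2.14 and -1.91, spike-in scaling lifts Dnmt1 to -0.87, and Tet2 spreads from -1.16 to 0.23.

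Genes listed as partners of methylation maintenance were mostly lower on the miR-153 array, with 9 differences below 0, or 8 under spike-in scaling. Whether each of them acts at the replication fork was not examined. Such genes numbered 10, of which 5 passed 2-fold lower and none 2-fold higher, with a median of -0.95, against -0.11 over all genes and 11.0% of all genes past 2-fold lower. Cdca7l, a paralog of the Hells cofactor Cdca7, differed by -2.25, from a dim probe that gave -1.03 after normexp correction. Hells, the remodeller that opens heterochromatin to the methylation machinery, differed by -2.03. Pcna, the sliding clamp that tethers Dnmt1 at replication sites, differed by -1.77, and Lig1, the ligase of lagging-strand synthesis and a docking partner of Uhrf1, by -1.59. Cdca7 itself differed by -1.19, and by -0.95 under spike-in scaling. Usp7, a deubiquitinase that binds Dnmt1 and Uhrf1, had a difference of 0.02, and Hdac1, a histone deacetylase that binds Dnmt1, one of -0.02 that lay above 0 in 5 alternative settings. The list also holds Trim28, at -0.24, and Zfp57, at -0.44 with 0.83 at its other probe. Cdca7, Usp7, Hdac1, Trim28 and Zfp57 were named after their values were seen.

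The S-phase genes, which are not methylation genes, were lower as a list by more than the methylation genes. Among the 22 of them, 21 passed 2-fold lower and none 2-fold higher, with a median of -1.60 and a range from -3.03 to -0.91. Tk1, the thymidine kinase of dividing cells, differed by -3.03, and Rrm2, a subunit of ribonucleotide reductase, by -2.38. Mcm6 and Mcm2, subunits of the replicative helicase, differed by -2.06 and -1.58, and Chaf1b, a subunit of the chromatin assembly factor, by -2.05. Uhrf1 therefore lay inside the range of this list and Dnmt1 near its upper end, while the other 8 methylation genes lay above it. Since these are bulk samples, fewer cells in S phase and less of each RNA per cell cannot be told apart. The part of replication genes in the lower Uhrf1 and Dnmt1 levels was not tested.

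Repair genes downstream of Tdg and Mbd4 centred elsewhere. Among 12 with a level on both arrays, 1 passed 2-fold lower and none 2-fold higher, where 11.0% and 9.23% of all genes did. Their median was 0.18. Neil3, a glycosylase typical of dividing cells, differed by -1.31, though by -0.83 after normexp correction. Ung, the uracil glycosylase, differed by -0.78, Xrcc1, the repair scaffold, by -0.71, and Nthl1, a glycosylase for oxidised pyrimidines, by 0.54.

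Genes listed as methyl-CpG readers were mostly above 0, with 2 of 9 differences below 0, or 3 of 9 after normexp correction. The list takes in members of the Mbd family by name, and whether each protein binds methylated CpG was not examined. Among the 9 listed genes, 2 passed 2-fold higher and none 2-fold lower, where 9.23% of all genes were that much higher, and their median was 0.73. Zbtb33, which encodes the reader Kaiso, differed by 1.17 and Mbd5 by 1.13. Mbd6 differed by 0.75. The 2 genes below 0 were Mbd3, a subunit of a deacetylase and remodelling complex, at -0.52 and Mbd2 at -0.30, with -0.18 and 0.01 at their other probes, and both were named after their values were seen.

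Partners of the Dnmt3 and Tet enzymes were mixed, with 2 of 15 at least 2-fold lower, 2 at least 2-fold higher and a median of 0.05. Both counts were near the shares over all genes, 11.0% lower and 9.23% higher. Cxxc4, a CpG-binding protein that binds Tet2 and lowers its protein level, differed by 1.94, and by 1.26 after normexp correction. Ogt, the transferase that adds N-acetylglucosamine to proteins and binds Tet enzymes, differed by 1.33, with 0.70 at its other probe. Dnmt3l, the catalytically inactive cofactor of Dnmt3a and Dnmt3b, differed by -1.16, and by -0.60 after normexp correction. Of the Gadd45 genes, stress-response genes linked to active demethylation, Gadd45b differed by -1.28, Gadd45a by -0.57 and Gadd45g by 0.05. Dppa3, a germ cell factor that keeps Uhrf1 off chromatin, did not stand well above background on either of the arrays.

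Genes that supply the methyl donor or the cofactors of the Tet enzymes were also mixed. Among 12 of them, 2 passed 2-fold lower and 2 passed 2-fold higher, where 11.0% and 9.23% of all genes did. Their median was -0.14, or 0.10 under spike-in scaling. Mat2a, which makes the methyl donor S-adenosylmethionine, differed by 1.34. Ahcy, which clears the S-adenosylhomocysteine left after methyl transfer, differed by -1.51, and both its probes were lower. D2hgdh, which removes 2-hydroxyglutarate, differed by 1.20, but its second measured probe gave -0.44, and it gave 0.68 after normexp correction. Idh3a, a subunit of a mitochondrial isocitrate dehydrogenase, differed by -1.06, and by -0.98 after normexp correction and -0.82 under spike-in scaling.

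**Figure D4:**
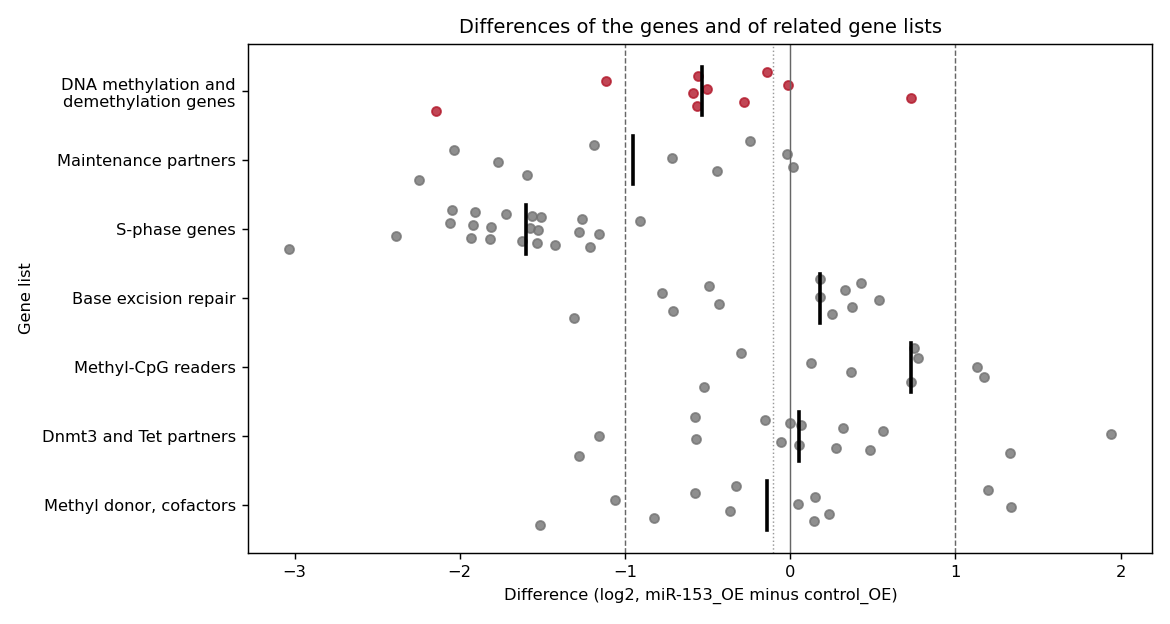
Difference of each gene (horizontal axis, log2, miR-153 array minus control array) in the methylation group (top row) and in 6 related lists, with a bar at each list's median, dashed lines at 2-fold and a dotted line at the median of all genes. The S-phase genes lie furthest to the left, with a median of -1.60, and the genes listed as methyl-CpG readers furthest to the right, with a median of 0.73.

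Germline genes that promoter methylation keeps silent in somatic cells were read as a further list. Among 16 such genes, 10 lacked a signal well above background on both arrays. Of the 6 that were on both, 1 was at least 2-fold lower and none higher, where 11.0% and 9.23% of all genes were. Their median was -0.38. Rhox5, an X-linked homeobox gene often used to follow loss of methylation, differed by -2.95, and by -1.52 after normexp correction. Taf7l, a testis transcription factor subunit, differed by -0.55, Brdt, a testis bromodomain gene, by -0.76, and Tuba3a, a testis tubulin with a near-identical paralog on the array, by 0.42. DNA methylation itself was not measured in these samples, so these RNA levels do not tell whether the promoters were methylated.

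The cell label was checked against markers, and the marker lists are given because they differed beside the methylation genes. All 10 neural stem and progenitor markers were well above background on both arrays, and their summed linear level was 717 times the percentile on each array. Fabp7 and Vim made up 81.3% of that sum on the miR-153 array and 89.2% on the control array, and without them the sums were 134 on the miR-153 array and 77.7 on the control array. Among them Hes5, a Notch target, differed by 2.44, Prom1 by 1.74 and Sox1 by 1.15, with 0.40 at its other probe. The median of the 10 was 0.17, and 4 differences were below 0. These were Nes, which encodes nestin, at -0.95, Notch1 at -0.74, Vim at -0.72 and Pax6 at -0.69. The other Notch1 probe gave 0.56. Among 9 markers of neurons, 6 passed 2-fold higher and 1, Gap43 at -1.50, 2-fold lower, where 9.23% and 11.0% of all genes did. Their summed levels were 169 on the miR-153 array and 137 on the control array. Dcx differed by 2.97, Tubb3 by 2.52, Elavl4 by 2.09 and Elavl3 by 1.92. Among 10 markers of the oligodendrocyte lineage, 5 passed 2-fold higher and 1 passed 2-fold lower, with sums of 126 on the miR-153 array and 88.9 on the control array. Cnp differed by 2.88, Mag by 2.56 and Cspg4 by -2.00, and Sox10 and Mbp by 1.54 and 1.45. In this list 4 of the 10 differences were below 0, or 2 with quantile normalization. Besides Cspg4 these were Olig2 at -0.57, Olig1 at -0.38 and Mog at -0.04. Gap43, Sox10, Mbp, Olig1, Olig2, Mog, Notch1, Pax6 and the difference of Vim were named after their values were seen. So were Gfap, Slc1a2, Slc1a3, Nanog and Tbx3 further on. Of 8 astrocyte markers 1 was at least 2-fold higher, S100b at 1.44, and 4 were so under spike-in scaling, with sums of 54.7 on the miR-153 array and 36.2 on the control array, and Aldh1l1, Gja1 and Sox9 differed by 0.99, 0.88 and 0.77. Gfap, the standard astrocyte marker, had a difference of 0.23, or -0.02 after normexp correction, Slc1a2 had one of 0.25, and Slc1a3 one of -0.15, or 0.09 under spike-in scaling.

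Markers of pluripotent cells, in which Dnmt3b, Tet1 and Dnmt3l are abundant, had a summed level of 4.81 on the miR-153 array and 9.44 on the control array. Among 7 with a level on both arrays, 3 passed 2-fold lower and none 2-fold higher, where 11.0% and 9.23% of all genes did. Esrrb differed by -2.48, Klf4 by -1.60, Dppa5a by -1.44 and Tdgf1 by -0.55. Nanog, a core pluripotency factor, had a difference of -0.11, with 0.76 at its other probe and 0.13 under spike-in scaling, and Tbx3 had one of 0.32. Zfp42 did not stand well above background, Pou5f1 did so on the miR-153 array alone and Fgf4 on the control array alone. Among 8 markers of microglia and blood, 6 did not stand well above background on either of the arrays. The other 2, Itgam and Csf1r, differed by 0.73 and -0.09, the second above 0 under spike-in scaling. Their probes disagreed in sign, from -0.75 to 0.73 over 3 Itgam probes and with 0.28 at the other measured Csf1r probe. The brightest Itgam probe had a level of 5.27 on the miR-153 array and 4.54 on the control array. What RNA it reads was not examined. The part of these cell types in the methylation genes' differences was not tested.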

How the data were processed

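Total RNA of both groups was labelled with cyanine-3 from a low input and hybridised to 1-colour Agilent arrays, per the labels' protocols. The authors deposited scanner intensity values, which the submitters' processing notes trace to Agilent Feature Extraction 10.7.3.1. Each spot's processed intensity has its background subtracted and comes with an estimated error and quality flags, per the file headers. The series table holds the same intensity divided by 485 for the miR-153 array and 381 for the control array (medians 0.0614 and 0.0662), so it is linear, neither centred nor inverted. It was used as an alternative.

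From these, log2 of signal over each array's 75th percentile over non-control spots was computed. Spots flagged as outliers on either array (229) were removed, none of them on a probe of the 10 genes, and repeat spots were averaged. The brightest probe over both arrays stood for a gene. The error of a log2 difference combines the software's errors of both spots. Dim and bright probes were told apart by the flag for being well above background. Probe positions and gene names are the array annotation's, on mm9, counted from 1, and exon or UTR annotation was not used here. All 10 symbols matched RefSeq. With 1 array a group, that number limits the precision and allows no test.

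The 10 genes, 13 further lists and the rules were chosen with earlier results of these data known. Named genes were all 10 members with every probe, up to 4 genes per further list with the largest absolute difference, and also Mcm2, Pcna, Dnmt3l, Dppa3, Gadd45a, Gadd45b and Gadd45g. Some of the genes so chosen are left out of the text and are not reported here. The 10 alternatives were quantile normalization, normexp correction with an offset of 50 (R 4.3.3, limma 3.58.1), median scaling, spike-in scaling, lowess (span 0.3), the series table, no filter and a stricter filter on dim probes, outlier spots kept, and the mean of all probes. Scripts (Python 3.11.15, numpy 2.4.6, pandas 2.3.3) were tested on simulated data.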

Additional observations from a re-analysis of the deposited data

How the results depend on the processing

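The number of genes at least 2-fold lower was 2, and was 1 under spike-in scaling, which left out Dnmt1, and 3 with the mean of all probes, which added Tet2. None was at least 2-fold higher under any of the 10 alternatives. The median of -0.53 became -0.45 after normexp correction, -0.43 with median scaling and -0.29 with spike-in scaling. With the stricter filter, 12 of the 13 probes left were lower, and Tet3 and Mbd4 gave no value. Tet2's difference of -0.01 was 0.01 after normexp correction, 0.09 with median scaling and 0.23 with spike-in scaling, and Tet3's of -0.14 was 0.10 with spike-in scaling. Over all genes, normexp correction gave 1528 at least 2-fold lower and 1199 higher, against 2258 and 1887, and spike-in scaling 1541 lower and 2816 higher. After normexp correction the dimmer Uhrf1 probe gave -1.40, against -2.09, and the upstream Tet2 probe -2.18, against -3.39. No paired analysis was possible because each group had 1 array. No array could be left out for the same reason. The causes of these shifts were not tested.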

Other observations

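The array also carries probes for transcribed regions named only by coordinates, and the 13 with a probe within 60 kb of those of the 10 genes were read after their values were seen. Of these, 9 had a probe measured on both arrays. Among all 4642 region probes so measured, the median difference was -0.23 and 11.8% were at least 2-fold lower. Distances below run between the nearest probes of the gene and of the region, not from the gene's start or the region's named ends. Whether a same-strand region lies within the gene and shares its RNA was not examined.

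A region on the same strand as Tet3 (chr6:83368261-83407280 in its name, mm9, minus strand) has its nearest probe 20.6 kb upstream of the nearest Tet3 probe. Of its 5 probes, 2 were measured on both arrays and differed by -2.80 and -2.77, and 1 had a signal well above background in control cells only. The opposite strand of that interval gave -0.14 to -0.02 over 3 probes, and the 3 Tet3 probes themselves differed by -0.53 to -0.14. A further plus-strand region near Tet3 gave -0.07.

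Of the same-strand regions near Tet1, one (chr10:62347876-62374346, minus strand) lies 46.0 kb upstream of the nearest Tet1 probe. It had 3 probes measured on both arrays, with differences from -1.64 to -0.69, and 2 with a signal well above background in control cells only. Its opposite strand gave 0.27 at 1 probe. The other 3 same-strand regions near Tet1 ranged from -0.58 to -0.32, and the Tet1 probes from -0.70 to -0.51. A same-strand region whose nearest probe lies 27.7 kb from that of Tdg gave -0.07 and 1.13.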
